A study of Mus musculus with 14 samples.

Results

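Genes that mark microglia in the brain or encode the chains of complement C1q were followed through RNA sequencing of mouse hippocampus. The 9 members were C1qa, C1qb, C1qc, Csf1r, Trem2, Cx3cr1, P2ry12, Tmem119 and Aif1, taken by symbol from the deposited comparison tables. All 9 were among the 16072 genes with a value in at least 3 libraries, and each member had a value in all 14 libraries. Each library came from 1 mouse of the C57BL6 strain, aged 30 days. Mice were wild type (KMT2D+/+) or carried 1 KMT2D allele labelled bGeo (KMT2D+/bGeo, called mutant here). KMT2D encodes a histone H3 lysine methyltransferase. Treated mice were gavaged with TAK-418 at 1 mg/kg/day and controls with methylcellulose vehicle; the compound inhibits LSD1, which removes methyl groups from histone H3. Dosing started at 2 weeks of age and lasted 2 weeks. The labels placed 3 libraries in wild-type vehicle, 3 in mutant vehicle, 5 in wild-type TAK-418 and 3 in mutant TAK-418. The labels name no cell type that limits the allele. RNA came from bulk hippocampus, in which fewer microglia and less RNA per microglial cell cannot be told apart.

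Microglia are the resident macrophages of the brain. C1q is the recognition part of the classical complement cascade and is assembled from the products of C1qa, C1qb and C1qc. In the brain microglia are its main source, and in the developing hippocampus C1q tags synapses that microglia then take up. Csf1r is the receptor for the growth factors CSF1 and IL-34, on which microglia depend to survive. Cx3cr1 is the receptor for fractalkine (Cx3cl1), which neurons present. P2ry12 is a purine receptor that guides microglial processes towards released nucleotides. Trem2 is a lipid receptor that signals through the adaptor Tyrobp. Tmem119 is a membrane protein used to tell microglia from other macrophages, and Aif1 encodes the calcium-binding protein IBA1.

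The 3 C1q genes lie side by side on the minus strand of chromosome 4 within 18675 bases of mm10, with C1qb at chr4:136880129-136886187, C1qc at chr4:136889804-136893065 and C1qa at chr4:136895917-136898803. Sequences before the start sites were available from RefSeq (GRCm38.p6) for 6 of the 9 members. These windows of 250 bases were searched on both strands for GAGGAA, the core of sites bound by the macrophage factor PU.1. The letters were found in 4 of the 6 windows (C1qb, C1qc, Aif1 and Trem2), and in 7639 of all 32851 windows of that length (23.3%). A match is a description of the letters and no evidence of binding. An assembled start lay within 100 bases of the RefSeq start in 0 of 14 libraries for Aif1 and 7 of 14 for P2ry12. It did so in 14 of 14 for C1qb, C1qc, Cx3cr1 and Trem2. The Aif1 window thus does not lie at a start assembled in these libraries. The windows of C1qb, C1qc and Trem2 are shown because 2 of these genes are neighbours and C1qb and Trem2 varied together across libraries. They are written 5′ to 3′ on the gene's strand, with the match in capitals (TTCCTC where GAGGAA reads on the opposite strand), from chr4:136886201-136886450 (minus strand), chr4:136892915-136893164 (minus strand) and chr17:48346151-48346400 (plus strand).
C1qb: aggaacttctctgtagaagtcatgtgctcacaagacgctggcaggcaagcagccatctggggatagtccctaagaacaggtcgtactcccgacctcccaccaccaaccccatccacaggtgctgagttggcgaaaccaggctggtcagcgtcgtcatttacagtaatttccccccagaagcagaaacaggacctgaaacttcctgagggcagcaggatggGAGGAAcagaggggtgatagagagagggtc
C1qc: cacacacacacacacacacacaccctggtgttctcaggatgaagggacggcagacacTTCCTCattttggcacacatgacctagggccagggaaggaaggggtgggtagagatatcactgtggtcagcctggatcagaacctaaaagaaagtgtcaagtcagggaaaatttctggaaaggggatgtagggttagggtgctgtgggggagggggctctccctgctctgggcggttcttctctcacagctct
Trem2: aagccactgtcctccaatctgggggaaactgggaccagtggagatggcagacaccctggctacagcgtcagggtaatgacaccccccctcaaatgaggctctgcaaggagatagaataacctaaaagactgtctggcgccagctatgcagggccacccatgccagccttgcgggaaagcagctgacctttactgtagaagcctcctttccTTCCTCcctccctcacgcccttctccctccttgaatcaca
The match began 30 bases before the RefSeq start in C1qb, 193 in C1qc and 40 in Trem2. It stood on the gene's own strand in C1qb and on the opposite strand in C1qc and Trem2. The windows of Cx3cr1 and P2ry12 did not hold these letters.

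The main value per gene was the summed abundance of its assembled transcripts in a library, which is per transcript length and on a scale like FPKM. It was divided by a library factor and is called scaled abundance below. A length-weighted form, abundance times transcript length in kilobases, was added after seeing the data because the assembled length of some members differed between libraries. The relative depth read from the smallest abundance steps was 168 M reads (M for mega) for wild-type TAK-418 library 1 and 35.1 to 60 M for the other 13. Implied reads behind a member's value ran from 95 for Aif1 to 19504 for Csf1r. The share of assembled transcripts with a single exon was 6.54 to 12.4% in wild-type TAK-418 libraries 1, 2, 4 and 5 and 11.4% in wild-type vehicle library 3, and 15.6 to 19.6% in the other 9. Genes of the choroid plexus, which borders the hippocampus, summed to 7231 in wild-type vehicle library 3 and 5839 in mutant vehicle library 1, against 83.4 to 1096 in the other 12. Summed Kmt2d abundance overlapped between genotypes under vehicle (9.22 to 13 in mutants, 11.1 to 13.8 in wild types). Under TAK-418 it was 9.35 to 11.8 in mutants and 11.9 to 15.4 in wild types. Which exons the allele removes is not given in the sources used here, so these sums do not check the genotype labels.

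Of the 9 members the C1q chains were the highest per length. C1qa averaged 34.8 ± 2.48 scaled abundance (SD, n = 14), C1qb 31.9 ± 2.92 and C1qc 31.3 ± 2.66. C1qa was above C1qb in 14 of 14 libraries, while C1qb was above C1qc in only 9 of 14, so the order of the last pair was within their spread. Csf1r followed at 26.3 ± 4.35, P2ry12 at 20.5 ± 1.29 and Cx3cr1 at 15.1 ± 0.777. These 3 receptors kept their order in every library. Tmem119 averaged 10.7 ± 1.28 and Trem2 8.72 ± 1.18, with Tmem119 above Trem2 in 12 of 14 libraries. Aif1 was the lowest at 4.68 ± 0.981. The spread over the 14 libraries, as a coefficient of variation, was narrowest for Cx3cr1 (5.14%) and widest for Aif1 (21%).

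**Figure D1:**
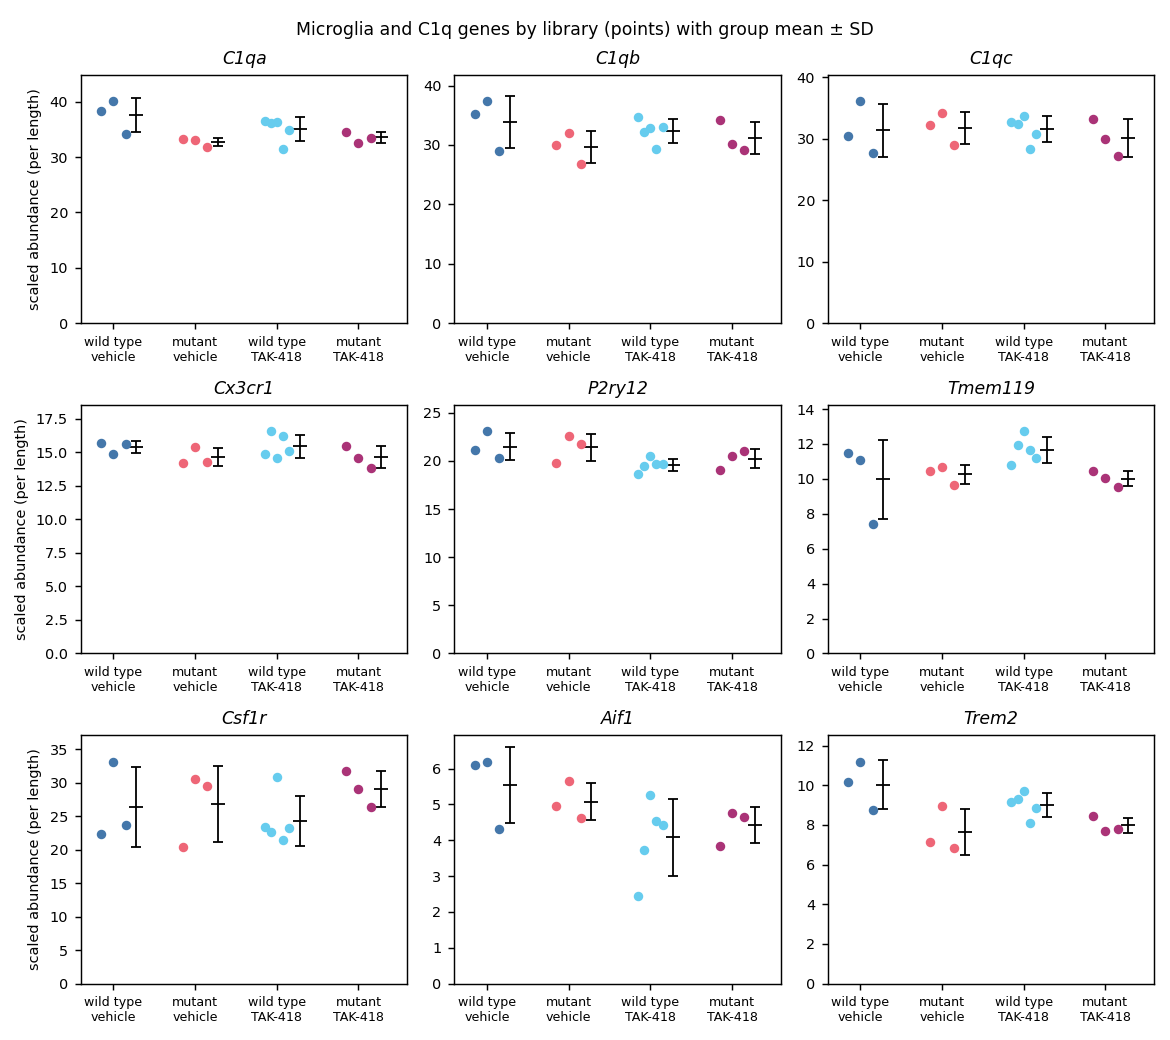
Scaled abundance (per length, y axis from 0) of each of the 9 genes in every library (points), by genotype and treatment, with the group mean and SD. C1qa in the 3 mutant vehicle libraries (31.9 to 33.2) sits below the 3 wild-type vehicle libraries (34.2 to 40.1). Csf1r falls into a higher and a lower band. The lower band holds 2 of 3 wild-type vehicle, 1 of 3 mutant vehicle, 4 of 5 wild-type TAK-418 and 0 of 3 mutant TAK-418 libraries.

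Genotype was compared first under vehicle. C1qa and Trem2 had lower means in the mutants, while C1qc, P2ry12, Cx3cr1 and Tmem119 differed by 0.07 or less on the log2 scale. No member passed an adjusted p of 0.05 in limma, and neither did any of the 16072 genes (0%). An unadjusted limma p under 0.05 was reached by 2 of 9 members, both lower in mutants, against 5.58% of all genes (897) in either direction. The members' median log2 difference was -0.07, with 6 of 9 below 0, against 48.9% of all genes below 0. Throughout, log2 differences are of log2(scaled abundance + 1), which understates the differences of low genes such as Aif1.

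Among the C1q chains, C1qa in wild-type vehicle libraries was 38.3, 40.1 and 34.2, and in mutant vehicle libraries 33.2, 33.1 and 31.9. Every mutant vehicle library was below every wild-type vehicle library. C1qa was the 1 member of 9 with that separation, which 4.55% of all genes showed in this direction. By length-weighted abundance the separation was lost, at 28.8 to 36.4 in wild types and 26.8 to 30.5 in mutants (exact permutation p = 0.3). The limma log2 difference was -0.19 (SE 0.0655, unadjusted p = 0.0133, adjusted p = 0.777), and the exact two-sided permutation p was 0.1, the smallest that 3 against 3 allows. C1qb was 35.1, 37.4 and 29.0 in wild types and 30.0, 32.1 and 26.8 in mutants, so its groups overlapped. Its log2 difference was -0.18 (SE 0.0981, limma adjusted p = 0.916). C1qc was 30.4, 36.1 and 27.7 in wild types and 32.2, 34.2 and 29.0 in mutants, with a log2 difference of 0.02 (SE 0.103). The C1qc values of the mutants lay inside the wild-type range. Its 95% interval (-0.20 to 0.25) also held the differences of C1qa and C1qb, and differences between the chains were not tested. Wild-type vehicle library 3, which carried the highest choroid plexus sum, was the lowest of its group for all 3 chains; without both libraries of high choroid plexus genes, the C1qa log2 difference was -0.27.

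Trem2 had the widest difference of the 9 under vehicle. It was 10.2, 11.2 and 8.75 in wild-type vehicle libraries and 7.14, 8.97 and 6.81 in mutant vehicle libraries. Mutant vehicle library 2 lay above wild-type vehicle library 3, so the groups overlapped by 1 pair. The limma log2 difference was -0.35 (SE 0.104, unadjusted p = 0.00507, adjusted p = 0.681), and the exact permutation p was 0.2. With length-weighted values the groups no longer overlapped, at 8.20 to 10.5 in wild types and 6.14 to 8.14 in mutants. How many of all genes were separated on that scale was not computed. Tyrobp, the adaptor of Trem2, was 17.7 ± 2.53 (SD, n = 3) in wild types and 15.8 ± 1.38 in mutants, a log2 difference of -0.15 (limma adjusted p = 0.992).

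Csf1r depended on where the assembly ended its last exon. The gene lies on the plus strand of chromosome 18 (chr18:61100598-61132149) and shares 873 annotated bases at its end with Hmgxb3 on the opposite strand. In 7 libraries its single assembled transcript was 5101 bases long and in the other 7 it was 3517 to 3564. The long form was present in wild-type TAK-418 libraries 1, 2, 4 and 5, wild-type vehicle libraries 1 and 3 and mutant vehicle library 1, and in 0 of 3 mutant TAK-418 libraries. Scaled abundance, which divides by that length, was 20.3 to 23.6 in libraries with the long form and 26.4 to 33.1 in those with the short form. These bands did not overlap, and they followed the assembled length. Length-weighted Csf1r was 107 to 123 with the long form and 93.2 to 118 with the short form, so the bands then overlapped. The length-weighted value of the long form also covers its extended last exon, so that scale is not free of the assembled end. The long form was more frequent in wild-type than in mutant libraries. Wild-type TAK-418 libraries 1, 2, 4 and 5 and wild-type vehicle library 3, which had few single-exon transcripts, all held it. No mutant library had so low a share. Among the other libraries only wild-type vehicle library 1 and mutant vehicle library 1 held the long form. Genotype and the single-exon share were not told apart here. The part of the long form in the length-weighted differences between genotypes was not tested.

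Under vehicle the Csf1r log2 difference was 0.02 (SE 0.179, limma adjusted p = 1) by scaled abundance and -0.15 (SE 0.0562, unadjusted p = 0.0229, adjusted p = 0.856) by length-weighted abundance. Length-weighted Csf1r was 114, 118 and 123 in wild-type vehicle libraries and 107, 108 and 106 in mutant vehicle libraries. Every mutant was below every wild type on that scale, and the exact permutation p was 0.1. The share of all genes separated on length-weighted values was not computed. The direction also turned under TAK-418: mutants differed from wild types by 0.26 (SE 0.161) by scaled abundance and -0.14 (SE 0.0503) by length-weighted abundance, with limma adjusted p of 0.924 and 0.913. No direction is given for Csf1r for that reason. The growth factors that bind it, Csf1 and Il34, differed by -0.14 and -0.13 (limma adjusted p = 0.892 and 0.955) in mutants under vehicle.

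**Figure D2:**
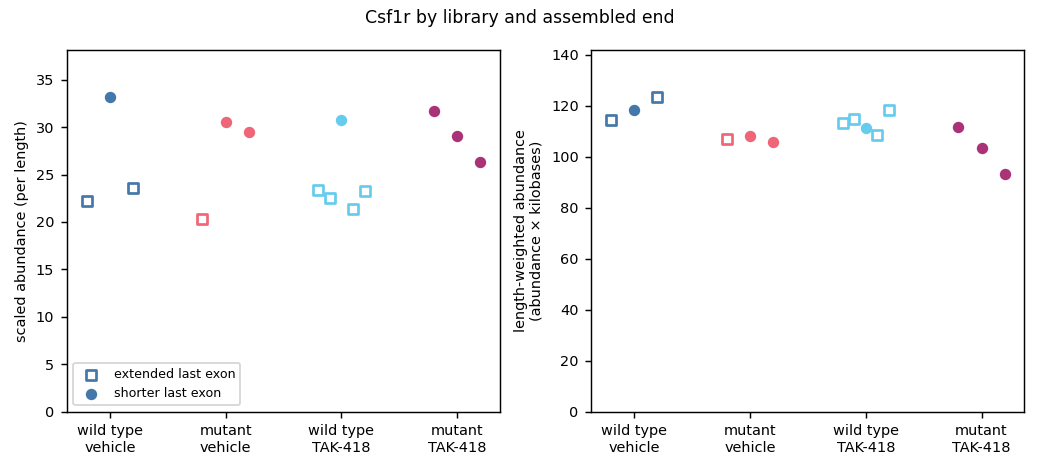
Csf1r in every library by scaled abundance (left) and by length-weighted abundance (right), with open squares for libraries whose assembled last exon was extended and filled circles for the shorter end. Extended libraries lie at 20.3 to 23.6 and the others at 26.4 to 33.1 on the left, while the bands overlap on the right.

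The chemokine and purine receptors showed the narrowest spread. Cx3cr1 was 14.9 to 15.7 in wild-type vehicle libraries and 14.2 to 15.4 in mutant vehicle libraries, a log2 difference of -0.07 (95% interval -0.20 to 0.06). P2ry12 was 21.1, 23.1 and 20.3 in wild-type vehicle libraries and 19.8, 22.6 and 21.8 in mutant vehicle libraries, a log2 difference of -0.01 (95% interval -0.14 to 0.13). Both intervals held 0. Tmem119 was 11.5, 11.1 and 7.39 in wild-type vehicle libraries and 10.4, 10.7 and 9.66 in mutant vehicle libraries. Library 3 of the wild types was the lowest of all 14 for Tmem119, and the log2 difference was 0.06 (SE 0.123). Aif1 was 6.10, 6.19 and 4.32 in wild types and 4.95, 5.65 and 4.63 in mutants, with a log2 difference of -0.09 (SE 0.194).

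With length-weighted abundance, 9 of 9 members were below 0 in mutants under vehicle, from -0.36 for Trem2 to -0.000384 for Tmem119, with a median of -0.09. The share below 0 over all genes was then 48.6%. An unadjusted p under 0.05 was reached by 2 of 9 (Trem2 and Csf1r), against 5.44% of all genes, and 0 of 9 passed the adjusted threshold in limma.

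Under TAK-418 the genotype difference was largest in size for Csf1r, described above, and for Tmem119. Tmem119 was 10.8, 11.9, 12.7, 11.7 and 11.2 in the wild-type TAK-418 libraries and 10.4, 10.1 and 9.55 in the mutant TAK-418 libraries. All 3 mutants were below all 5 wild types, at a distance smaller than the spread within the wild types. The exact two-sided permutation p was 0.0357, the smallest that 3 against 5 allows, and the limma log2 difference was -0.20 (SE 0.11, adjusted p = 0.924). Tmem119 was the 1 member of 9 separated this way, against 2.33% of all genes. In the exact test, pairs of 3 against 3 libraries cannot go below 0.1 on either scale. Only pairs with the 5 wild-type TAK-418 libraries could thus fall under 0.05. Over the 54 exact tests of 9 members in 6 pairs of groups, 2 gave an unadjusted p under 0.05, and both were of Tmem119. The other was mutant vehicle (9.66 to 10.7) against wild-type TAK-418 (10.8 to 12.7), with the same p of 0.0357 in the exact test, and 3.67% of all genes were separated this way. Of the 54 exact tests on length-weighted values, 4 gave an unadjusted p under 0.05, each at 0.0357. They were Tmem119 and Aif1 in mutant against wild-type TAK-418 libraries, and Csf1r and Aif1 in mutant vehicle against wild-type TAK-418 libraries. The share of all genes so separated on length-weighted values was not computed. In wild-type TAK-418 libraries 1 and 2 the Aif1 transcript was joined to the neighbouring gene Lst1. Tmem119 in mutant vehicle against wild-type TAK-418 libraries then overlapped, with an exact permutation p of 0.107. With the single-exon share as a covariate the Tmem119 difference under TAK-418 was -0.41 (limma adjusted p = 0.956). Tmem119 in wild-type vehicle library 3 was low at 7.39, so the mutants were not below all wild-type libraries.

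The other members under TAK-418 overlapped between genotypes. Trem2 was 9.15, 9.31, 9.69, 8.09 and 8.84 in wild types and 8.43, 7.71 and 7.81 in mutants, a log2 difference of -0.16 (SE 0.0927, limma adjusted p = 0.924). Only wild-type library 4 fell within the mutant range. C1qa was 36.6, 36.1, 36.3, 31.4 and 34.9 in wild types and 34.5, 32.6 and 33.5 in mutants, a log2 difference of -0.06 (SE 0.0586). C1qb and C1qc differed by -0.05 and -0.07, within 1 SE of 0. No member reached an unadjusted p under 0.05 in limma, against 4.89% of all genes, and 0% of all genes passed the adjusted threshold. The median over members was -0.06, with 6 of 9 below 0, against 48.8% of all genes.

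By length-weighted abundance 9 of 9 members were below 0 under TAK-418 as well, from -0.21 (Tmem119) to -0.03 (C1qc), where 52.5% of all genes were below 0. Csf1r and Aif1 had an unadjusted p under 0.05 there, 2 of 9 against 4.88% of all genes, and no member passed the adjusted threshold in limma. Aif1 was 3.25 to 3.72 in wild types and 2.70 to 3.07 in mutants on that scale, without overlap. In wild-type TAK-418 libraries 1 and 2 the assembled Aif1 transcript was joined to the neighbouring gene Lst1, so their values also cover Lst1 sequence. Library 1 gave the top value of 3.72. Wild-type TAK-418 libraries 3, 4 and 5, which were not joined, were at 3.55, 3.25 and 3.42, also above the mutant range. The share of all genes separated on that scale was not computed.

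In mutants, TAK-418 against vehicle gave differences on both sides of 0. The members' log2 differences ran from -0.17 (Aif1) to 0.13 (Csf1r), with a median of 0.00 and 4 of 9 below 0. By length-weighted abundance Aif1 was at -0.04 and Csf1r at -0.06. By scaled abundance C1qa was 0.03 (SE 0.0655), Trem2 0.06 (SE 0.104), Cx3cr1 0.00 (SE 0.0605) and P2ry12 -0.08 (SE 0.0617). None of the 9 had an unadjusted p under 0.05 in limma, against 4.43% of all genes, and 0% of all genes were called. The 95% intervals of C1qa (-0.11 to 0.18) and Trem2 (-0.16 to 0.29) both held 0, and C1qa was at -0.05 by length-weighted abundance. Against vehicle wild types, the treated mutants stood at -0.16 for C1qa (limma adjusted p = 0.889) and -0.29 for Trem2 (adjusted p = 0.809). These were the 2 of 9 members under the unadjusted threshold, against 5.48% of all genes, and 0% were called. Trem2 in the 3 treated mutants (7.71 to 8.43) was below all 3 vehicle wild types (8.75 to 11.2), with an exact permutation p of 0.1. It was the 1 member of 9 so separated, against 4.04% of all genes. By length-weighted abundance Trem2 overlapped there (exact permutation p = 0.2). On that scale the 2 of 9 members with an unadjusted p under 0.05 were Csf1r (-0.21, limma adjusted p = 0.585) and Trem2 (-0.30, adjusted p = 0.865), against 5.39% of all genes. Csf1r stood at 0.15 by scaled abundance in this comparison, the opposite sign.

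In wild types, P2ry12 and Aif1 had lower means after TAK-418. P2ry12 was 18.6, 19.4, 20.5, 19.6 and 19.7 in treated wild types against 20.3 to 23.1 under vehicle, a log2 difference of -0.13 (SE 0.0552, unadjusted limma p = 0.0408, adjusted p = 0.559, exact permutation p = 0.0714). One treated library, number 3, was above the lowest vehicle library, and by length-weighted abundance the P2ry12 difference was -0.07 (exact permutation p = 0.321). Aif1 was 2.44, 3.73, 5.28, 4.54 and 4.42 in treated wild types against 4.32 to 6.19, a log2 difference of -0.38 (SE 0.173, unadjusted limma p = 0.04997, adjusted p = 0.575, exact permutation p = 0.143). The lowest Aif1 values were in libraries 1 and 2, where its assembled transcript was joined to the neighbouring gene Lst1, and by length-weighted abundance the Aif1 difference was 0.09. In treated libraries 3, 4 and 5 the main Aif1 transcript was 688 to 778 bases long, against 562 to 590 in wild-type vehicle libraries. The part of that length in the difference was not tested. Tmem119 was higher by 0.23 (SE 0.11, limma adjusted p = 0.602) and by 0.04 without wild-type vehicle library 3. Unadjusted p under 0.05 was reached by 2 of 9 members, against 8.69% of all genes, and 0% were called. By length-weighted abundance it was reached by 0 of 9, against 9.24% of all genes. The members' median was -0.10, with 6 of 9 below 0. The share of single-exon transcripts was lower in 4 of the 5 treated wild types, as given above, and its part in these differences was not tested beyond a fit with the share as a covariate, in which P2ry12 was at -0.08, Aif1 at -0.26 and Tmem119 at 0.40.

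The difference of the drug's effect between genotypes, the interaction, was above 0 for 7 of 9 members with a median of 0.13 by scaled abundance (2 of 9 below 0, against 49.0% of all genes). By length-weighted abundance 4 of 9 were below 0 and the median was 0.000832, so that pattern rested on the scale. It ranged from -0.26 (Tmem119, SE 0.165) to 0.23 (Csf1r, SE 0.241), and limma adjusted p was 0.976 or higher for every member. No member reached the unadjusted threshold, against 4.49% of all genes, and 0% were called. With the single-exon share as a covariate the Tmem119 interaction was -0.41 (unadjusted p under 0.05, limma adjusted p = 0.988). For vehicle mutants against treated wild types, P2ry12 was higher by 0.12 and Trem2 was at -0.22, the 2 of 9 members with an unadjusted limma p under 0.05, against 9.42% of all genes. Their adjusted p were 0.529 and 0.501, and 0% of all genes were called. By length-weighted abundance they were at 0.06 and -0.17 and 0 of 9 members reached the unadjusted threshold, against 9.72% of all genes. Over the alternatives P2ry12 ran from 0.01 to 0.54 in this comparison.

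**Figure D3:**
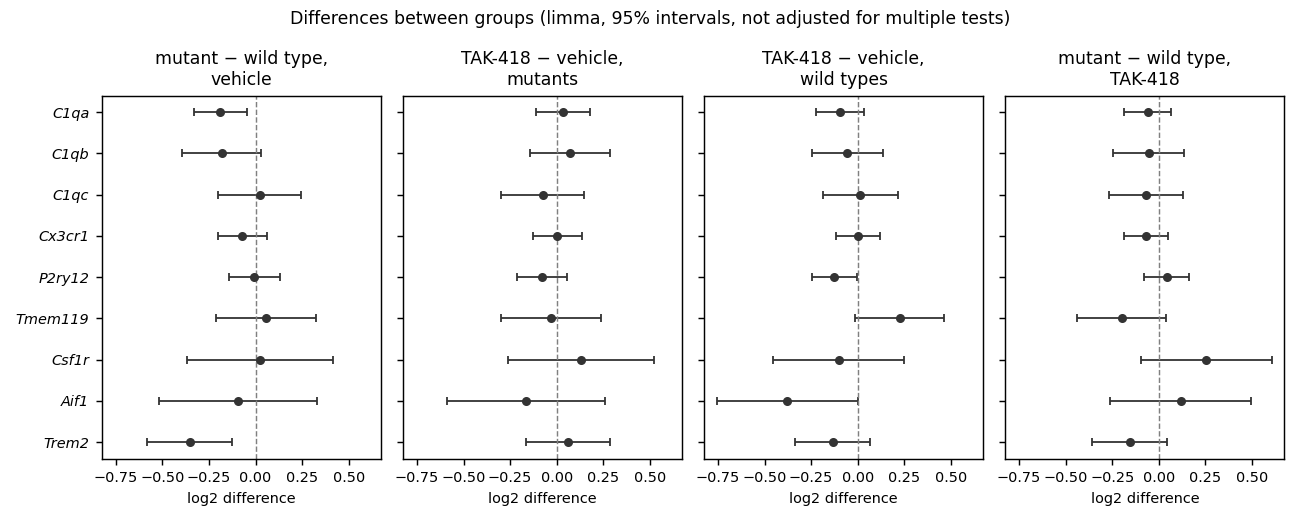
Log2 differences between groups for the 9 genes in limma (points) with 95% intervals not adjusted for multiple tests, in a panel per comparison. Trem2 (-0.35) and C1qa (-0.19) lie left of 0 under vehicle, and no interval stands for a difference that passed the adjusted threshold.

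The assembled transcripts also differed between libraries in their starts and splicing. C1qa was assembled as 1 transcript of 3 exons in 14 of 14 libraries. A minor C1qc form with another donor site in its first exon was present in 10 of 14 libraries and made up at most 12.8% of the gene. Trem2 had a form with an upstream acceptor at exon 4 in 10 of 14 libraries, at most 10.3% of the gene. P2ry12 had transcripts from an upstream first exon in 8 of 8 wild-type libraries, at 10.2 to 22.4% of the gene under vehicle and 13.4 to 100% under TAK-418. The mutants had them in 3 of 6 libraries, at 0 to 11.0%. The whole P2ry12 gene lies inside Med12l on the opposite strand. In wild-type TAK-418 libraries 1, 2 and 4 all of P2ry12 was assigned to the upstream start, and these libraries were among those with few single-exon transcripts. This difference was found by looking through the assembled forms, so it is given as a description with no test.

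The members did not all vary together across libraries. Over the 14 libraries the Pearson correlation of log2 values was 0.882 for C1qa with Trem2, 0.864 for C1qa with C1qb, 0.852 for C1qb with Trem2 and 0.750 for C1qb with C1qc. P2ry12 and Aif1 correlated at 0.790 by scaled abundance and at 0.150 by length-weighted abundance. Over all 36 pairs the median was 0.205 and the range -0.289 to 0.882; by length-weighted abundance the median was 0.395. Members of a library share its depth and scaling, so these values are descriptions. Wild-type vehicle library 2 had the highest mean deviation, with 1 of 9 members below its gene's mean, and wild-type vehicle library 3 the lowest, with 7 of 9 below. On length-weighted values mutant vehicle library 3 was the lowest (mean log2 deviation -0.16, against -0.08 for wild-type vehicle library 3).

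**Figure D4:**
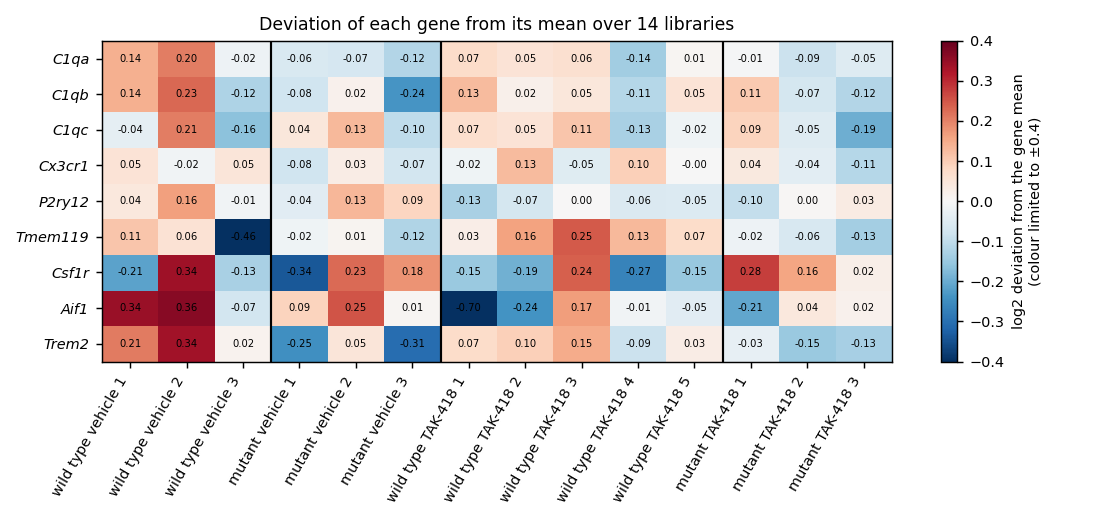
Log2 deviation of each of the 9 genes (rows) from its mean over the 14 libraries (columns, by group), with colour limited to 0.4 in each direction. Wild-type vehicle library 2 is above the mean for 8 of 9 genes and wild-type vehicle library 3 below it for 7 of 9.

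Genes whose log2 values most resembled the mean deviation of the members over 14 libraries were, of 13173 compared, Prdx6 (r = 0.861), Ftl1 (0.823), Gnb5 (0.820), Skp1a (0.814), Zfp622 (0.811), Tmem199 (0.789), Pip4p1 (0.786), Lypla2 (0.786), Pitpna (0.786) and Nsmce1 (0.785). Only 1 of the 10, Ftl1, was also among the leading 10 once group means were removed, and 1 was shared with the length-weighted list. None of the 10 is a member of the microglial lists used here. Of 19 other microglial identity genes with a value in every library, 16 had r above 0, with a median of 0.334, against a median of 0.00143 over all genes compared (50.1% above 0). Ctss, a lysosomal protease of microglia, was the highest of them at 0.745. Mef2c, which hippocampal neurons also express, was the lowest at -0.498.

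The authors' deposited tables gave FPKM per group for the same genes. In the authors' deposited table of mutant vehicle over wild-type vehicle, 8 of 9 members were below 0 with a median log2 ratio of -0.14, and 0 of 9 were called at a q-value of 0.05, against 0.224% of all loci tested. Trem2 had the lowest ratio in the authors' deposited table, from 8.04 to 6.10 FPKM (p = 0.0397, q = 0.982). C1qa went from 29.7 to 26.0 FPKM and Csf1r from 21.8 to 19.7 FPKM in the authors' deposited table. The Csf1r ratio was thus below 0 there, as in the length-weighted values and unlike the scaled abundance. Its locus in the authors' deposited tables ran to chr18:61177346, past the annotated gene end at 61132149. How much of its FPKM came from beyond the gene was not tested, so the ratio settles no direction for Csf1r. The loci of P2ry12 and Cx3cr1 also reached past their annotated genes. In the authors' deposited table of mutant TAK-418 over wild-type TAK-418, 8 of 9 were below 0 and 0 were called (0.218% of all loci), and Tmem119 went from 8.20 to 6.95 FPKM (p = 0.0132, q = 0.808). In the authors' deposited tables of mutant TAK-418 over wild-type vehicle and mutant vehicle over wild-type TAK-418, 9 and 7 of 9 were below 0 and 0 were called, against 0.324% and 0.611% of all loci. These 4 tables share groups of libraries with each other and with the fits above, so they are not separate evidence. The share of all loci below 0 was not computed for the authors' deposited tables, so the counts of members below 0 have no background beside them. Aif1 shares its locus with Lst1 in the authors' deposited tables, and its FPKM there cannot be assigned to Aif1 alone. The counts of members below 0 include that locus.

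Other microglial identity genes were compared in the same way, among them Mef2c, which hippocampal neurons also express. Of 20 such genes, 14 were below 0 in mutants under vehicle (median -0.09) and 19 under TAK-418 (median -0.08). Of all genes, 48.9% and 48.8% were below 0 in these comparisons. None of the 20 passed the adjusted threshold in limma. Their summed scaled abundance was 271 to 301 in wild-type vehicle, 253 to 273 in mutant vehicle, 264 to 282 in wild-type TAK-418 and 244.5 to 266 in mutant TAK-418 libraries. The ranges overlapped in both treatments. Ctss was 42.9 ± 5.16 (SD, n = 3) in wild-type vehicle and 34.0 ± 2.58 in mutant vehicle libraries. The Ctss log2 difference was -0.32 (SE 0.0996, limma adjusted p = 0.689). Mef2c was 27.4 ± 2.67 and 27.6 ± 3.10 in the same groups.

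Of the complement list 19 of 20 genes were tested, and 9 were below 0 in mutants under vehicle (median 0.02), with 0 called. Clu, a secreted complement inhibitor, was 647 ± 10.8 (SD, n = 3) in wild-type vehicle and 605 ± 50.7 in mutant vehicle libraries. Calr, a chaperone that binds C1q, was 301 ± 11.1 and 319 ± 20.4, and Cr1l, a regulator of C3 convertases, 13.9 ± 3.05 and 12.4 ± 0.54. Of the components that act after C1q, C3 averaged 1.32 and C4b 6.16 over all libraries, both below the C1q chains. Of the 14 ligands and partners, 8 were below 0 in mutants under vehicle with a median of -0.01 and 0 called; Apoe, a lipid carrier that binds Trem2, averaged 1095, Cx3cl1 220 and Gas6 43.2. Of 14 genes that rise in disease-associated microglia, 8 were below 0 (median -0.01) and 0 were called. Ctsb and Ctsd, lysosomal proteases that many brain cells express, averaged 267 and 201, while Cst7, Itgax and Clec7a had a value in only 4, 5 and 6 of 14 libraries.

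Genes of other myeloid cells were summed in the same way, with no test of the sums. The 10 genes of border-associated macrophages, all with a value, summed to 7.76 to 10.5 in wild-type vehicle, 12.2 to 15 in mutant vehicle, 7.97 to 10.7 in wild-type TAK-418 and 10.7 to 12.5 in mutant TAK-418 libraries. The genotypes did not overlap under vehicle, while under TAK-418 the lowest mutant was just below the highest wild type. The share of all genes or of other sums separated in this direction was not computed. Under vehicle 9 of 10 were above 0 in mutants (median 0.27), where 48.9% of all genes were below 0, and 0 passed the adjusted threshold. An unadjusted limma p under 0.05 was reached by 3 of 10 (Cd163, Lyve1 and F13a1), against 5.58% of all genes in either direction. Of its defining genes, Mrc1 averaged 2.54 over all libraries, Cd163 1.45 and Cd74 1.23, well under the members. Cd163, a scavenger receptor, was 0.976 ± 1.04 in wild-type vehicle and 2.30 ± 0.791 in mutant vehicle libraries (limma adjusted p = 0.846), and Lyve1 was at 0 in all 3 wild-type vehicle libraries. The list was thus higher under vehicle in the group where C1qa and Trem2 had lower means, and its part in the members' values was not tested. Of the 8 genes of monocytes, neutrophils and lymphocytes, 7 had any value, 3 were tested and Cd3e was at 0 in every library. They summed to 0 to 1.25 outside the mutant vehicle group and to 0.965 to 10.3 within it, and the genotypes overlapped under TAK-418. Among lists of other cell types under vehicle, genes below 0 in mutants were 0 of 10 for choroid plexus (median 0.52), 1 of 5 tested for blood (median 0.39) and 3 of 9 tested for endothelial and mural cells (median 0.08). They were 4 of 7 for astrocytes (median -0.003), 6 of 6 for oligodendrocytes (median -0.12) and 1 of 7 for hippocampal neurons (median 0.04), whose 7 genes summed to 2141 to 2461 and were present in every library group. No gene of these lists passed the adjusted threshold in limma in any contrast.

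**Figure D5:**
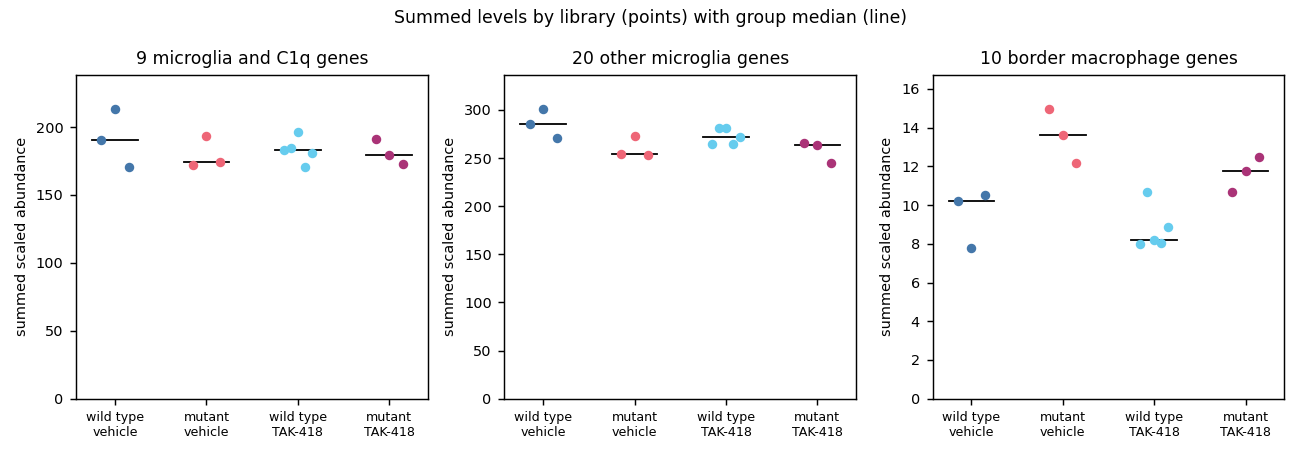
Summed scaled abundance of gene lists in every library (points) by genotype and treatment, with the group median as a line and y axes from 0. Border-associated macrophage genes sum to 12.2 to 15 in mutant vehicle libraries and to 7.76 to 10.5 in wild-type vehicle libraries.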

How the data were processed

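RNA of 14 hippocampi (1 library per mouse) was sequenced after extraction with a Direct-zol kit and preparation with NEBNext Ultra kits, per the labels; which library had which of the named kits is not given in the sources used here. Reads were aligned to mm10 with TopHat2 2.1.0, per the submitters' processing notes. Transcripts were assembled with CLASS 2.1.7, per the file headers, and each deposited transcript carries an abundance, treated here as a score that is per transcript length. The 4 deposited comparison tables give FPKM per group, log2 ratios, p-values and q-values for 81411 loci each; the tool that made them is not given in the sources used here.

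Transcripts were assigned to GENCODE M21 genes by shared introns on the same strand, or for single-exon transcripts by an exon overlap of at least 50%. Abundance was summed per gene and divided by a median-of-ratios library factor. Differences were tested with limma 3.58.1 (R 4.3.3) on log2(value + 1), with the spread estimated over all 4 groups, for the 16072 genes with a value in at least 3 libraries and Benjamini-Hochberg adjustment over them. Single members were also tested by exact two-sided permutation (54 tests on scaled and 54 on length-weighted abundance, unadjusted). The fit was tested on simulated data. Alternatives covered the pseudocount, filter, scaling, transcript choice, left-out libraries and 2 settings chosen after seeing the data (abundance times length, and the single-exon share as a covariate).

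Of each gene list, genes past the adjusted threshold and the 3 with the highest mean were named, except 1 gene that is not reported here; others (ligands, partners, defining markers) were named for their role after their values were seen. The members and the 13 lists were chosen with earlier results of these data known. Depth is relative, read from the steps of the deposited abundances.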

Additional observations from a re-analysis of the deposited data

Results flagged for a closer look

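In the group of 5 wild-type TAK-418 libraries, 20 measures were looked at for 1 library standing apart (the members on both scales, their mean deviation and the relative depth), by its gap to the nearest library over the group's range against a critical value of 0.71. Chance marks about 1 in 20 such groups, and 3 measures were marked. Csf1r by scaled abundance was highest in library 3 at 30.8, with the next library at 23.3; library 3 is the 1 library of the group without the extended last exon. C1qb by length-weighted abundance was lowest in library 4 at 28.2, with the next at 30.9. Relative depth was highest in library 1 at 167.7 M reads (M for mega), with the next at 56.1 M. The groups of 3 libraries were not screened.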

How the results depend on the processing

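No member passed the adjusted threshold in limma in any of the 7 contrasts under any setting run; the smallest adjusted p of a member was 0.501 in the fit as reported and 0.365 to 0.639 over the alternatives. Over all genes the count was 0 in each contrast as reported and reached 6 (genotype under vehicle and interaction), 7 (genotype under TAK-418 and TAK-418 in wild types), 10 (treated mutants against vehicle wild types), 12 (vehicle mutants against treated wild types) and 16 (TAK-418 in mutants) under 1 alternative or another. Of the 12 differences rerun under 25 alternatives each, the 9 of C1qa, Trem2, P2ry12 and Tmem119 kept their direction: C1qa under vehicle from -0.28 to -0.14 and Trem2 from -0.46 to -0.18. The 12 held every member difference with an unadjusted limma p under 0.05, so a kept sign says little. Outside the 12, length-weighted abundance turned C1qa after TAK-418 in mutants from 0.03 to -0.05. It also turned P2ry12 between genotypes under TAK-418 from 0.04 to -0.04. Leaving out wild-type vehicle library 3 lowered the TAK-418 difference of Tmem119 in wild types from 0.23 to 0.04.

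Csf1r under vehicle (0.02) was -0.06 without rescaling, -0.15 with abundance times length and -0.05 with the single-exon share as a covariate. Leaving out 1 library at a time gave -0.08 to 0.20, below 0 without wild-type vehicle library 1 (-0.08) or 3 (-0.04) or mutant vehicle library 2 (-0.08) or 3 (-0.05). Csf1r under TAK-418 (0.26) was -0.14 with abundance times length and -0.01 with the covariate. Aif1 after TAK-418 in wild types (-0.38) was 0.09 with abundance times length. The cause of these changes of sign was not tested.

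Without rescaling, 71.5% of all genes were below 0 in mutants under vehicle, with a median of -0.08, against 48.9% with it, so differences are read relative to that shift. Of 36 group means of the members, 2 moved by more than 1 SD without rescaling and 5 when only the highest transcript of a gene was kept. With 3 libraries per group the exact test cannot go below 0.1. No paired analysis was possible because the replicate numbers only name libraries in the order of deposit and the labels pair no mice across groups.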
